A study of Mus musculus with 6 samples.

Results

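Krueppel-like factors are transcription factors that share a block of zinc fingers, and 10 of their genes were followed here by name in the livers of mice with and without hepatocyte *Med23*: *Klf2*, *Klf3*, *Klf4*, *Klf6*, *Klf9*, *Klf10*, *Klf11*, *Klf12*, *Klf13* and *Klf15*. They are 10 of 24346 genes with a value, and 10 of 10 had a mean of at least 0.5 FPKM, the level from which a gene was tested. FPKM counts sequenced fragments per length of transcript and per size of library. The 6 libraries were made from whole livers of male C57/BL6 mice, 8 weeks old, 24 hours after 0.6 μl CCl4 per g body weight, a toxin that hepatocytes turn into a damaging radical. The 3 control mice were *med23* f/f, labelled wt, and carried the floxed allele without cre. The 3 others were labelled *med23* ko, and in these *med23* Δli mice *Albumin*-cre removes the floxed part of *Med23*, a subunit of the Mediator complex, in hepatocytes alone, so that endothelial, stellate and immune cells keep the gene. Both groups had received CCl4, and livers without the toxin were not analysed here. The study reports substantial necrosis in control livers at this time and hardly any in *med23* Δli livers, with fewer apoptotic cells. By that report the groups differ in injury as well as genotype, and the part of injury in the levels below was not tested.

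Members of this family bind GC-rich and CACCC sequences through the zinc fingers at their C terminus, and their unlike N termini recruit activators or repressors. In the liver, KLF15 and KLF9 are known as glucocorticoid-responsive factors with a part in fasting metabolism, KLF6 as an early injury gene of hepatocytes and stellate cells, and KLF2 and KLF4 as flow-responsive factors of the endothelium. KLF10 and KLF11 repress through Sin3 complexes and were named for their response to TGF-beta, and KLF3 and KLF12 repress through CtBP.

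*Med23*, the deleted gene, was looked at first. Its level was 3.42, 2.97 and 4.14 FPKM among controls and 3.40, 3.40 and 2.91 FPKM in the knockout group, giving a log2 fold change of −0.11 (SE 0.17, adjusted p = 0.685, limma). A gene-level FPKM does not show the deleted exons by themselves, so the groups rest on the labels, and the 3 livers labelled as knockouts are called *med23* Δli livers by that label alone. The hepatocyte marker genes summed to 26131–36260 FPKM in the controls and 22882–29221 FPKM in *med23* Δli livers. Replicate 2 of *med23* Δli livers stood apart in fat cell genes. In that library 6 of 7 adipocyte markers were higher than in the other 5 libraries, with *Adipoq* at 5.65 FPKM against 0 to 0.0907 FPKM elsewhere. The calls of the members are given with and without it, and so are the counts of the other lists where they changed.

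Most of the 10 genes were higher in *med23* Δli livers. The genes were chosen with earlier results of these data known, so their counts beside those of all genes are a description. Of the 10 genes, 6 rose at an adjusted p under 0.05 (*Klf3*, *Klf9*, *Klf11*, *Klf12*, *Klf13* and *Klf15*) and 0 fell, whereas 11.6% of the 11956 genes tested rose and 9.48% fell. Past a 2-fold change as well, 4 members rose (*Klf9*, *Klf11*, *Klf12* and *Klf15*) against 4.45% of all genes, and 0 fell against 3.45%. The other 4 genes (*Klf2*, *Klf4*, *Klf6* and *Klf10*) did not pass the test. With 1 library left out, between 1 and 8 members rose. The adjusted p came from limma on log2(FPKM + 0.1) with Benjamini-Hochberg adjustment over all genes tested. It sets the difference between 3 mice and 3 mice against the spread within the groups. In limma that spread is drawn towards the spread of genes of like level. At an unadjusted p under 0.05 the counts were 8 higher and 0 lower, against 20.5% and 17.1% of all genes. The log2 fold change was above 0 in 8 of 10 members and in 52.2% of all genes. Its median was 1.14 over the members and 0.02 over all genes tested.

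The same contrast was read from the single livers. In 8 of 10 members every *med23* Δli liver was above every control, a separation upwards that 23.3% of all genes had. Separation downwards, found in 20.4% of all genes, was found in 0 members. For these 8 genes the exact permutation test (two-sided, 3 livers per group) gave p = 0.1, the smallest it can give, and p = 0.3 for *Klf2* and *Klf10*, whose groups overlapped. Summed over the 10 genes, the level was 82.4, 54.0 and 108 FPKM in the controls and 153, 164 and 167 FPKM in *med23* Δli livers. The sum was thus lowest in control replicate 2 and nearly even among *med23* Δli livers.

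**Figure D1:**
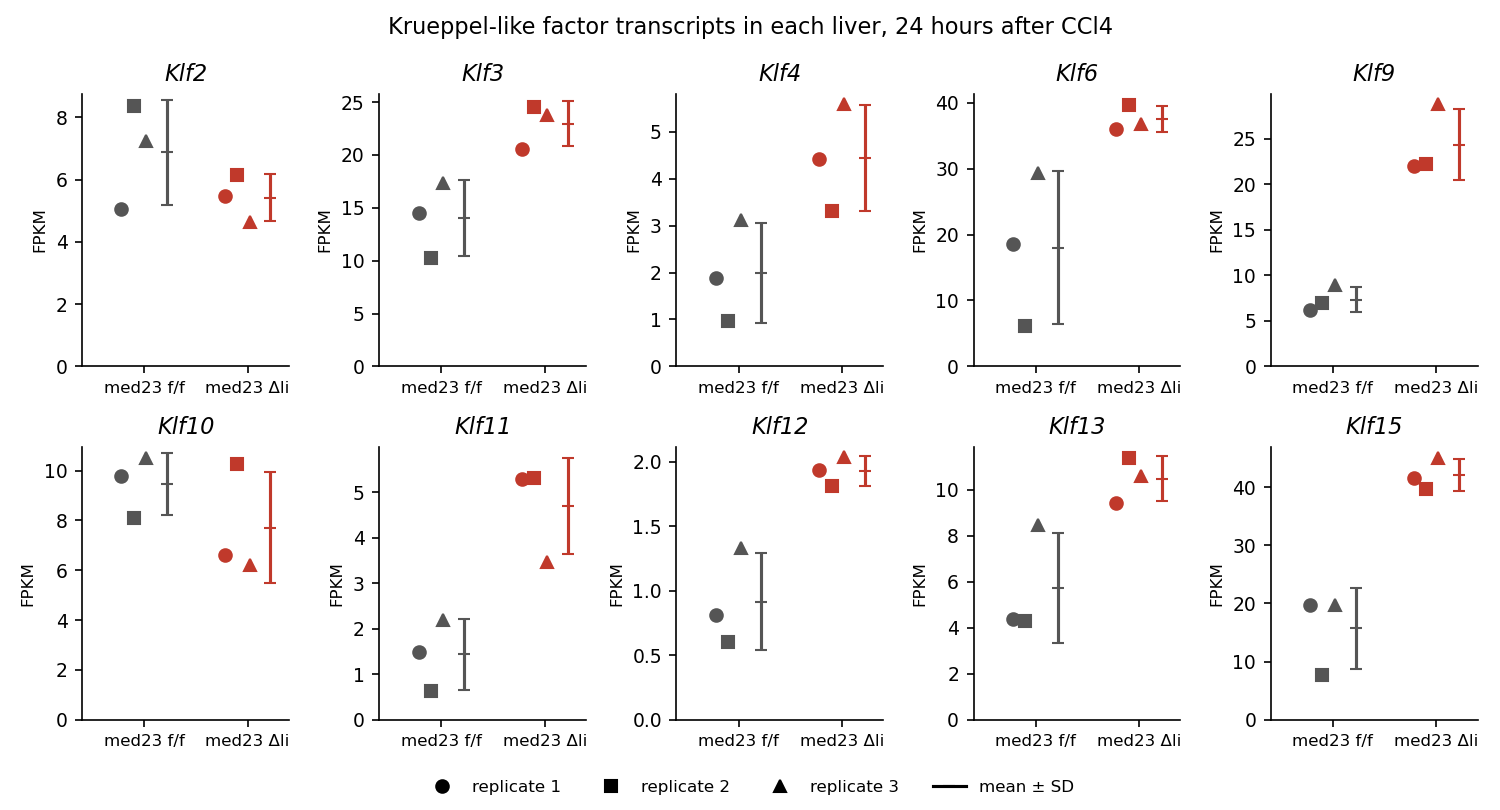
FPKM of the 10 Krueppel-like factor genes, 1 panel a gene with a linear axis from 0, in 3 *med23* f/f livers (grey) and 3 *med23* Δli livers (red), with symbols for the replicates and the mean ± SD beside them. *Klf9* has controls at 6.17 to 8.89 and the other livers at 22.0 to 28.8 FPKM, whereas the groups of *Klf2* and *Klf10* overlap.

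*Klf9* and *Klf13* encode the closely related factors once named BTEB, which bind GC boxes and recruit Sin3A. *Klf9* (ENSMUSG00000033863.2) spans bases 23141226 to 23168134 of chromosome 19 (mm10, plus strand), with 2 exons in GENCODE M21. It had 6.17, 6.91 and 8.89 FPKM in the controls and 22.0, 22.2 and 28.8 FPKM in *med23* Δli livers. The lowest of the *med23* Δli livers was more than double the highest control. The means were 7.32 ± 1.41 and 24.3 ± 3.87 FPKM (SD, n = 3 each). The log2 fold change was 1.72 (SE 0.18, 95% interval 1.31 to 2.14), and *Klf9* rose at an adjusted p of 0.00188. It had the smallest adjusted p of the 10 genes and was past the test in 17 of 17 alternative settings, with an adjusted p between 0.00119 and 0.0290.

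*Klf13* (ENSMUSG00000052040.10), on the minus strand of chromosome 7 from 63886351 to 63938915, encodes the factor also known as RFLAT-1, an activator of *Ccl5* in T cells. It had 4.39, 4.28 and 8.48 FPKM in the controls and 9.43, 11.4 and 10.6 FPKM in the other livers. The groups did not overlap, but control replicate 3 came close to the lowest of the *med23* Δli livers. The mean rose from 5.72 ± 2.39 to 10.5 ± 0.981 FPKM (log2 fold change 0.93, SE 0.26, 95% interval 0.33 to 1.53, adjusted p = 0.0401). The call stood near the threshold. With 1 library left out it held only without control replicate 3, and the largest adjusted p was 0.125. Without a filter on low values the adjusted p was 0.0763 and without a mean-variance trend 0.0533, and over all 17 settings it lay between 0.00290 and 0.235. *E030018B13Rik*, a gene on the opposite strand, overlaps *Klf13*. It had 0.563, 4.51 and 1.57 FPKM in the controls and 0, 0.147 and 0.0362 FPKM in *med23* Δli livers. It fell (log2 fold change −3.52, adjusted p = 0.0139) and so moved the other way. No source used here says that reads were counted by strand, so those of the overlap cannot be told apart.

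*Klf10* and *Klf11* encode the TGF-beta-inducible pair of repressors. *Klf11* (ENSMUSG00000020653.12) spans bases 24651274 to 24662789 of chromosome 12 (plus strand). It had 1.49, 0.636 and 2.18 FPKM in the controls and 5.30, 5.30 and 3.48 FPKM in *med23* Δli livers, so that it was low in control replicate 2 and the groups lay apart. The mean rose from 1.44 ± 0.775 to 4.69 ± 1.05 FPKM, with a log2 fold change of 1.76 (SE 0.40, 95% interval 0.85 to 2.68, adjusted p = 0.0206). With a pseudocount of 1 the fold change of *Klf11* was 1.26 on the log2 scale, and without control replicate 2 it was 1.30. With 1 control left out *Klf11* kept its call in each of 3 fits. Without replicate 1, 2 or 3 of *med23* Δli livers it lost the call, with an adjusted p of up to 0.0769, and over the 17 settings the adjusted p lay between 0.00853 and 0.0839.

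*Klf10* (ENSMUSG00000037465.10), on the minus strand of chromosome 15 from 38291463 to 38300706, encodes the early TGF-beta response factor that also represses gluconeogenic genes. It had 9.78, 8.09 and 10.5 FPKM in the controls and 6.63, 10.3 and 6.22 FPKM in the other livers. Replicate 2 of *med23* Δli livers was as high as the controls, and the groups overlapped. The log2 fold change was −0.32 (SE 0.21, 95% interval −0.81 to 0.17) and did not pass the test (adjusted p = 0.305). Control livers held far less *Klf11* than *Klf10*. The log2 ratio of *Klf11* to *Klf10* FPKM was −2.88 ± 0.716 in the controls and −0.71 ± 0.336 in *med23* Δli livers (SD, n = 3 each). The difference of 2.18 came with groups that did not overlap and p = 0.1 in the exact two-sided permutation test.

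*Klf15* encodes a factor for amino acid breakdown and gluconeogenesis. It was the most abundant member by mean in *med23* Δli livers, although *Klf6* was the largest in replicate 2 of them. *Klf15* (ENSMUSG00000030087.11) spans bases 90462576 to 90475238 of chromosome 6, on the plus strand. It had 19.8, 7.68 and 19.7 FPKM in the controls and 41.6, 39.6 and 45.1 FPKM in *med23* Δli livers. Control replicate 2 was well below the other controls, and every *med23* Δli liver was at about double the 2 higher ones. The mean rose from 15.7 ± 6.97 to 42.1 ± 2.77 FPKM (log2 fold change 1.54, SE 0.34, 95% interval 0.75 to 2.32, adjusted p = 0.0198). Without control replicate 2 the log2 fold change was 1.09 and *Klf15* was still past the test, with an adjusted p of 0.00515. It lost the call when replicate 1, 2 or 3 of *med23* Δli livers was left out, with an adjusted p of up to 0.0767, the largest over the 17 settings.

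*Klf6* encodes an early injury factor of stellate cells and hepatocytes. The gene (ENSMUSG00000000078.7) spans bases 5861482 to 5870394 of chromosome 13, on the plus strand. It had 18.5, 6.18 and 29.3 FPKM in the controls and 36.0, 39.7 and 36.8 FPKM in *med23* Δli livers. The controls spread over a wide range, with replicate 2 lowest, whereas the other livers lay close together and above them. The log2 fold change was 1.32 (SE 0.48, 95% interval 0.20 to 2.43) and did not pass the test (adjusted p = 0.0873). It was 0.68 without control replicate 2. Without control replicate 3 it was 1.80 and past the test (adjusted p = 0.0202), and over the 17 settings the adjusted p lay between 0.0202 and 0.196.

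The stretches before the start of *Klf9*, *Klf11* and *Klf15* are shown, because these 3 genes had the largest log2 fold changes among the members past the test with all 6 libraries. They are RefSeq sequences of GRCm38.p6, the assembly of mm10, on the plus strand, and each ends at the last base before the gene's first base in RefSeq or GENCODE, whichever comes first. The *Klf9* stretch is chr19:23140976-23141225, that of *Klf11* is chr12:24651121-24651273 and that of *Klf15* is chr6:90462326-90462575. Capitals mark an E-box (CACGTG, the letters read by the clock factors CLOCK and BMAL1 and by other helix-loop-helix factors), a CACCC box (CACCC or its reverse complement) or a CCAAT box (CCAAT or its reverse complement).
Klf9: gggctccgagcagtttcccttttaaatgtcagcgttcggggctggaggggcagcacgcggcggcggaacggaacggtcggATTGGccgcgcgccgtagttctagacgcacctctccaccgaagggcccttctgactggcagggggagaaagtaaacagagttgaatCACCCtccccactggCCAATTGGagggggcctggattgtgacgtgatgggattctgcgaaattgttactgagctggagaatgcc
Klf11: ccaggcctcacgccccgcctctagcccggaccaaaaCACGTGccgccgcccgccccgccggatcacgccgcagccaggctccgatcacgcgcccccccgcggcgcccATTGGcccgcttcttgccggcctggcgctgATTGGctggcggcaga
Klf15: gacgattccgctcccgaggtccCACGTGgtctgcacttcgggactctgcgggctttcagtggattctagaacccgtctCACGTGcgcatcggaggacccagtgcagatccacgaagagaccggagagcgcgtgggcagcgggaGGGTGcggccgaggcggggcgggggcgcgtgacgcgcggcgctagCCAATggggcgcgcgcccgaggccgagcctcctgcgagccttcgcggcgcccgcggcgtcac
In the printed stretch *Klf15* has 2 E-boxes, whose first bases stand at −228 and −172 relative to the start, *Klf11* has 1 and *Klf9* has 0. RefSeq windows of 300 bases, from 250 before to 50 after the start, were matched for 9 of 10 members, all but *Klf10*. An E-box was in 4 of these 9 windows (*Klf4*, *Klf6*, *Klf11* and *Klf15*) and in 7.15% of 32851 windows of that length. A CACCC box was in 6 of 9 windows and in 57.5% of all, a CCAAT box in 5 of 9 and in 37.4%, and a GC box (GGGCGG, either strand) in 7 of 9 and in 35.7%. The letters AGGTCA, the core bound by many nuclear receptors, were in 0 of 9 windows and in 16.3% of all. Members had 45.7% to 77.7% G and C, and the median of all windows was 52.7%. The RefSeq start of *Klf12* lies inside the longer gene that GENCODE gives. A match of letters is a description of the window and not a binding site.

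*Klf3* and *Klf12* encode the CtBP-binding repressors of the family. *Klf3* (ENSMUSG00000029178.14) spans bases 64803388 to 64832901 of chromosome 5 (plus strand). It had 14.5, 10.2 and 17.3 FPKM in the controls and 20.5, 24.5 and 23.8 FPKM in *med23* Δli livers. Again the groups lay apart, with control replicate 2 lowest. The mean rose from 14.0 ± 3.56 to 22.9 ± 2.12 FPKM (log2 fold change 0.73, SE 0.20, 95% interval 0.27 to 1.20, adjusted p = 0.0375), the smallest change among the members past the test. With 1 library left out the call held only without control replicate 3, and the largest adjusted p was 0.122. It was also lost without a filter (0.0651) and without a trend (0.0516), and over the 17 settings the adjusted p lay between 0.0151 and 0.170.

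*Klf12* (ENSMUSG00000072294.5), on the minus strand of chromosome 14 from 99870632 to 100284679, was the least abundant member in both groups. It had 0.811, 0.605 and 1.33 FPKM in the controls and 1.94, 1.81 and 2.04 FPKM in the other livers. The *med23* Δli livers differed little among themselves and were all above the controls. The mean rose from 0.916 ± 0.374 to 1.93 ± 0.113 FPKM (log2 fold change 1.06, SE 0.28, 95% interval 0.42 to 1.70, adjusted p = 0.0335). At such levels the pseudocount weighs on the fold. With 1 FPKM added in place of 0.1 the log2 value was 0.63, still past the test but under 2-fold. With 1 library left out the call held only without control replicate 3, with an adjusted p of up to 0.107 otherwise. It was lost without a filter (0.0651), and over the 17 settings the adjusted p lay between 0.00775 and 0.141. Noncoding genes overlap *Klf3* and *Klf12* on the opposite strand, and *C230096K16Rik* overlaps *Klf3* on the same strand.

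*Klf2* and *Klf4* encode the flow-responsive factors of endothelial cells, and KLF4 also acts in monocytes. *Klf2* (ENSMUSG00000055148.7), on the plus strand of chromosome 8 from 72319033 to 72321656, had 5.05, 8.36 and 7.25 FPKM in the controls. It had 5.47, 6.16 and 4.64 FPKM in *med23* Δli livers. The groups overlapped, and the log2 fold change of −0.32 (SE 0.21, 95% interval −0.80 to 0.17) did not pass the test (adjusted p = 0.302). *Klf4* (ENSMUSG00000003032.8), on the minus strand of chromosome 4 from 55527143 to 55532466, had 1.88, 0.972 and 3.11 FPKM in the controls. It had 4.43, 3.32 and 5.58 FPKM in the other livers. All 3 were above the controls, yet the log2 fold change of 1.23 (SE 0.38, 95% interval 0.34 to 2.11) missed the threshold (adjusted p = 0.0556). It passed without control replicate 3 (0.0142), with a pseudocount of 1 (0.0488) and in 1 further setting, and over the 17 settings the adjusted p lay between 0.0142 and 0.176.

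Genes that mark endothelial cells fell in the same livers. Of 8 markers 8 fell, with a median log2 fold change of −0.98, between −0.75 for *Pecam1* and −1.27 for *Clec4g*. Of these, 5 passed the test without replicate 1, 2 or 3 of *med23* Δli livers, and 7 without control replicate 1 or 2. Their summed level was 91.9–130 FPKM in the controls and 49.7–53.2 FPKM in *med23* Δli livers, and no marker was at 0. *Clec4g* alone gave 51.0, 83.9 and 64.5 FPKM of the sum in the controls. In whole liver, fewer cells of a type and less RNA per cell cannot be told apart. *Klf2* and *Klf4* are also used by other cells of the liver, and the part of the endothelial share in their levels was not tested.

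**Figure D2:**
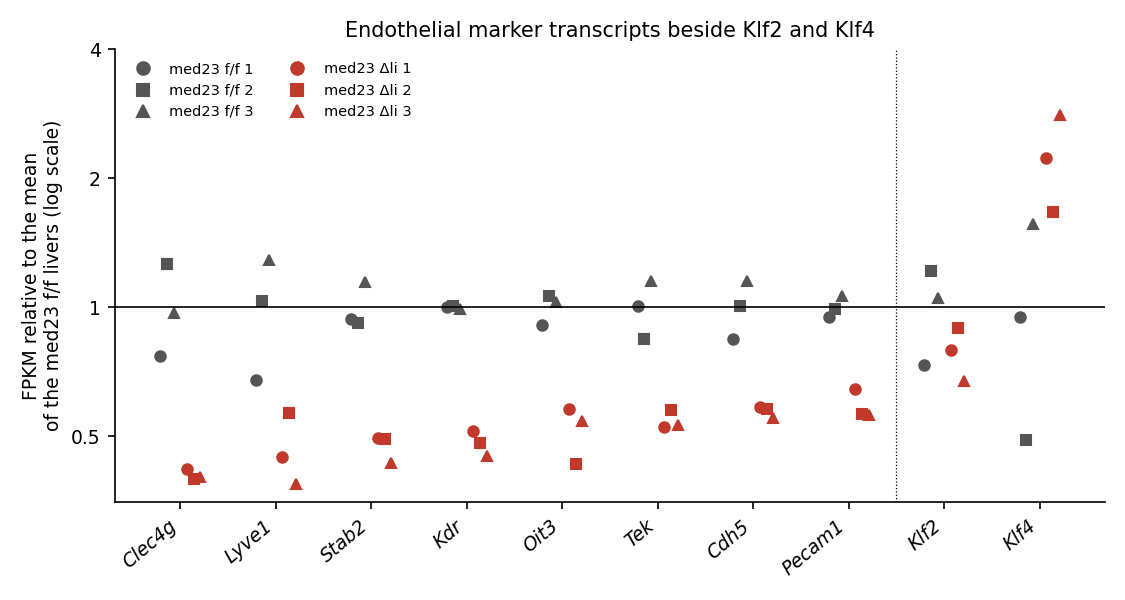
FPKM of 8 endothelial markers and of *Klf2* and *Klf4* in each library (grey *med23* f/f, red *med23* Δli), divided by the mean of the *med23* f/f livers and drawn on a log axis with a line at 1. Red symbols of the 8 markers lie under the grey ones, those of *Klf2* overlap with them and those of *Klf4*, at 3.32 to 5.58 FPKM, lie above.

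The order of the members by level differed between the groups in a few places. In the controls it ran from *Klf6* and *Klf15* over *Klf3*, *Klf10*, *Klf9*, *Klf2*, *Klf13*, *Klf4* and *Klf11* down to *Klf12*. Neighbours in this order overlapped in range, except *Klf13* and *Klf4*. In *med23* Δli livers it ran from *Klf15* over *Klf6*, *Klf9*, *Klf3*, *Klf13*, *Klf10*, *Klf2*, *Klf11* and *Klf4* to *Klf12*. There *Klf6* was above *Klf9*, *Klf3* above *Klf13*, *Klf10* above *Klf2* and *Klf4* above *Klf12* with no overlap, and the other neighbours overlapped. *Klf9* stood 5th by mean in the controls and 3rd in the other group. These are FPKM, a scale per transcript length, so genes can be set side by side.

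Related members were also set against each other within each library. The log2 ratio of *Klf9* to *Klf13* was 0.42 ± 0.317 in the controls and 1.21 ± 0.238 in *med23* Δli livers, a difference of 0.79 with no overlap. That of *Klf4* to *Klf2* was −1.92 ± 1.04 and −0.31 ± 0.579, a difference of 1.60 with no overlap. The exact two-sided permutation p was 0.1 for each, and for the *Klf11* to *Klf10* ratio given above. The groups of the CtBP pair overlapped. *Klf3* to *Klf12* had 3.98 ± 0.246 and 3.57 ± 0.177 (SD, n = 3 each), a difference of −0.41 with an exact permutation p of 0.2. A ratio within a library does not depend on its scaling.

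**Figure D3:**
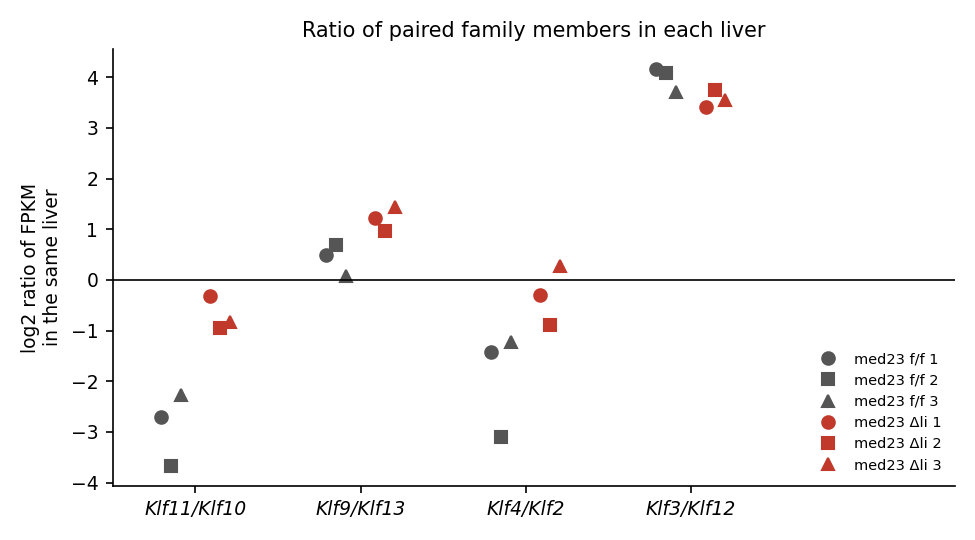
Log2 ratio of FPKM between 4 pairs of related members, 1 symbol a library (grey *med23* f/f, red *med23* Δli), with a line at equal FPKM. The ratio of *Klf11* to *Klf10* lies at −3.67 to −2.27 in the controls and −0.96 to −0.32 in *med23* Δli livers, and that of *Klf3* to *Klf12* overlaps between the groups.

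The controls varied more than the other livers in these genes. Control replicate 2 was the lowest control for 8 of 10 members, against 39.9% of all genes, and control replicate 3 was the highest for 8 of 10, against 35.0%. The SD of log2(FPKM + 0.1) was larger in the controls for 9 of 10 members, and for 72.6% of all genes. Its median over the members was 0.53 in the controls and 0.17 in *med23* Δli livers, and over all genes 0.25 and 0.15. The number of members past the test moved with the library left out, as did that of all genes. It was 3 without control replicate 1 or without control replicate 2 (*Klf9*, *Klf11* and *Klf15* in both) and 8 without control replicate 3, where *Klf4* and *Klf6* were added. Without replicate 1, 2 or 3 of *med23* Δli livers it was 1, *Klf9*, and so also without the library with fat cell genes. Over all genes the same 6 fits gave 1099, 1029 and 1723 up without control replicate 1, 2 and 3, and 397, 478 and 553 up without *med23* Δli replicate 1, 2 and 3, against 1384 with all libraries. In none of the 17 settings did a member change its direction.

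**Figure D4:**
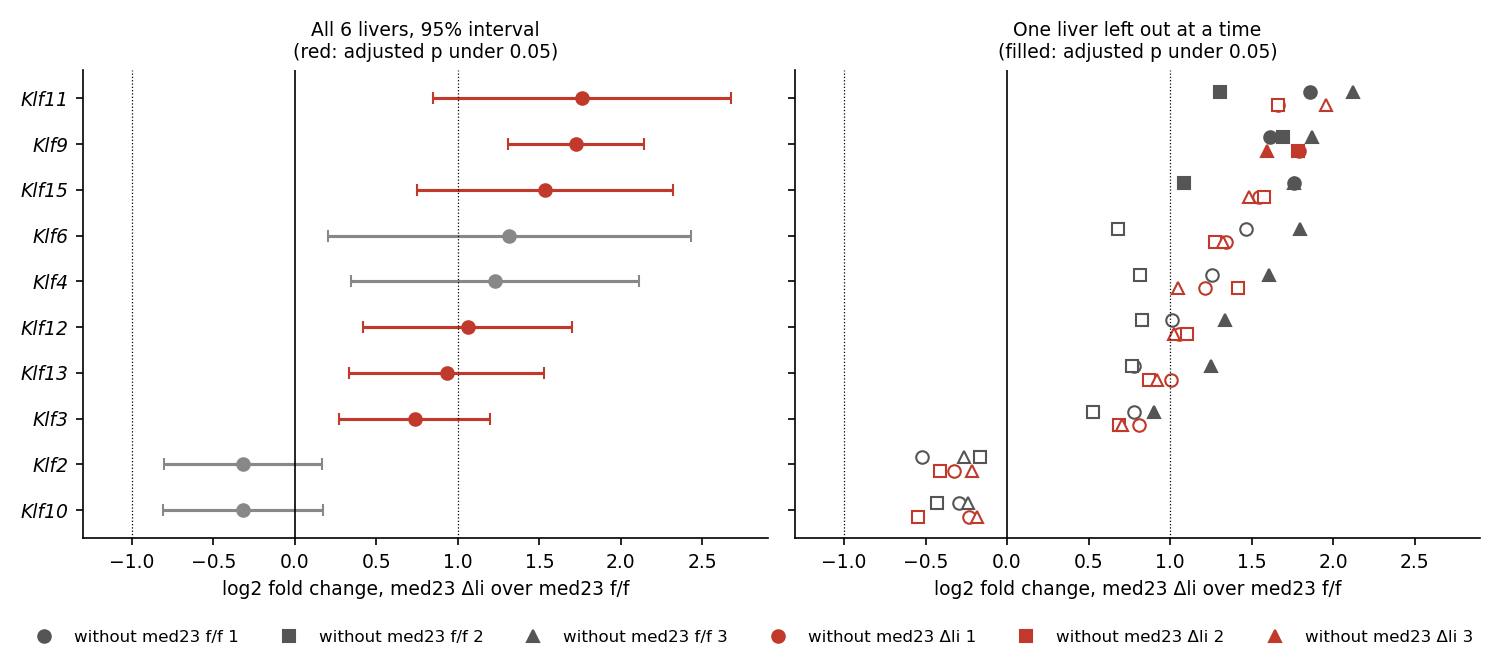
Log2 fold change of each member, *med23* Δli over *med23* f/f, on the left with its 95% interval from limma (red at an adjusted p under 0.05) and on the right with each library left out (filled at an adjusted p under 0.05), with dotted lines at 2-fold. *Klf9* stays between 1.60 and 1.87 with each library left out and is filled throughout, whereas *Klf6* runs from 0.68 to 1.80.

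Most remaining genes of the family had low levels. Of 7 other *Klf* genes, 5 were under the filter, among them *Klf14* and *Klf17*, which were listed at 0 in every library. The other two did not pass the test. *Klf16*, a further BTEB-type factor, had 2.74, 3.53 and 7.78 FPKM in the controls and 8.29, 8.30 and 7.22 FPKM in *med23* Δli livers (log2 fold change 0.89, adjusted p = 0.0979). The value for *Klf7* was −0.49 (adjusted p = 0.430). *Klf5* was untested for its low level, at 0.270, 0 and 0.585 FPKM against 0.710, 0.674 and 0.605 FPKM. Of 9 SP genes, whose zinc fingers bind the same GC boxes, 3 were tested and 0 passed, with a log2 fold change of 0.03 for *Sp1*, 0.02 for *Sp2* and 0.64 for *Sp3* (adjusted p = 0.0924). Without control replicate 3, 1 other *Klf* gene and 1 SP gene rose, and without a filter 1 SP gene rose.

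Partners and regulators of the family were counted next. Of 16 cofactor and turnover genes, 1 rose and 1 fell, beside 11.6% and 9.48% of all genes. The acetyltransferase gene *Kat2b* rose (log2 fold change 0.70, adjusted p = 0.0336), and the deacetylase gene *Hdac1* fell (−0.74, adjusted p = 0.0422). Both calls were lost without a filter, with the replicate number as a block and without control replicate 2, when 0 rose and 0 fell. The same held without replicate 1, 2 or 3 of *med23* Δli livers. That of *Hdac1* was also lost with TPM rescaling, without a trend and without control replicate 1. Genes of the Sin3 and CtBP complexes that repressor members recruit were otherwise not past the test. Of 14 tested genes known upstream of *Klf* genes, 1 rose, *Smad4*, the common partner of TGF-beta signalling (0.48, adjusted p = 0.0447). The list had a median of 0.36. No gene of it rose without a filter, with TPM rescaling, without a trend or with the replicate number as a block. None rose with any library left out except control replicate 3, without which 4 rose. Without control replicate 2, 1 fell. For *Nr3c1*, which encodes the glucocorticoid receptor, the log2 fold change was 0.46 (adjusted p = 0.186), and *Nr1d1*, which encodes a clock repressor, showed 0.92 (adjusted p = 0.216).

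Genes described as targets of members did not move one way. Of 19 tested, 2 rose and 5 fell, beside 11.6% and 9.48% of all genes, with a median log2 fold change of −0.07. Without control replicate 3, 4 rose and 6 fell. *Ccl5*, which KLF13 activates in T cells, had 7.80, 3.57 and 6.36 FPKM in the controls and 53.8, 36.5 and 23.6 FPKM in *med23* Δli livers. It rose by 2.65 on the log2 scale (adjusted p = 0.00426). T and B cell markers were near 0 in both groups, with a sum of 1.32–1.89 FPKM in the controls and 1.25–2.08 FPKM in the others, and 0 of 8 reached the filter. *Lgals3*, which encodes galectin-3 and is known to be repressed by KLF3, rose as well (1.81, adjusted p = 0.00899). Targets described in endothelial cells were mixed. *Nos3*, a KLF2 target, fell (−1.18, adjusted p = 0.00847), and so did *Eng*, a KLF6 target (−0.92, adjusted p = 0.00346), beside a median of −0.98 for the endothelial markers. *Thbd* (−0.60, adjusted p = 0.0811), *Acvrl1* (−0.40, adjusted p = 0.194) and *S1pr1* (0.45, adjusted p = 0.110) did not pass the test, and *S1pr1* was higher in every *med23* Δli liver than in every control. *Smad7*, which KLF10 and KLF11 act on in TGF-beta feedback, fell too (−1.02, adjusted p = 0.00644). Of 4 amino acid enzymes tied to KLF15, *Gpt2* fell (−1.39, adjusted p = 0.00657). *Gpt* (−0.63, adjusted p = 0.0854) and *Prodh* (0.37, adjusted p = 0.230) did not pass the test. *Tat* had 325, 163 and 397 FPKM in the controls and 508, 516 and 472 FPKM in the other livers without passing the test (0.85, adjusted p = 0.0791). *Pck1* (0.63, adjusted p = 0.120) and *Dio1* (0.65, adjusted p = 0.214), also on the list, did not pass the test. *Fam132a*, the gene of the secreted protein adipolin, fell (−1.25, adjusted p = 0.0120). Over these lists of other *Klf* and SP genes, cofactors, regulators and targets, 54 of 66 genes were tested, 4 rose and 6 fell.

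Markers of the other liver cells gave the following background. Of 8 Kupffer cell and macrophage markers, 0 passed the test, with sums of 190–259 FPKM in the controls and 220–232 FPKM in *med23* Δli livers. Monocyte (5 tested), neutrophil (4 tested) and cholangiocyte markers (5 tested) had 0 called. Without control replicate 1, however, 1 Kupffer cell or macrophage marker and 1 neutrophil marker fell, and without control replicate 3, 1 Kupffer cell or macrophage marker rose. The neutrophil sums spread widely, from 42.1 to 135 FPKM and from 39.7 to 99.3 FPKM. Of 7 stellate cell markers 2 fell, *Des* and *Colec11*, with a median log2 fold change of −0.52 and sums of 91.9–111 and 70.2–88.9 FPKM. Of 6 hepatocyte markers tested 1 fell, *Serpina1a*, a gene with near-identical copies. Of 4 adipocyte markers tested 1 fell, *Cidec*, which fat-laden hepatocytes also express. Of 4 erythroid markers tested 1 rose, *Hba-a1*, a globin gene whose reads cannot be told apart from those of its near-identical copy. The erythroid sums were 48.4–82.8 FPKM in the controls and 109–180 FPKM in *med23* Δli livers, with no overlap. These sums include the globin genes with near-identical copies. Of the 4 markers tested 2 were higher and 2 lower, *Hba-a2* (log2 fold change −0.13, adjusted p = 0.895) and *Alas2* (−0.40, adjusted p = 0.387). *Hbb-b1*, another globin gene with a near-identical copy, had 0.00537, 0.0659 and 47.7 FPKM against 68.6, 121 and 109 FPKM (adjusted p = 0.0510). With 1 library left out, the number of stellate markers that fell ranged from 0 (without *med23* Δli replicate 1) to 2, and was 1 without control replicate 1 or 2 or *med23* Δli replicate 2 or 3. Without control replicate 3, 2 hepatocyte markers fell. *Serpina1a* lost its call without control replicate 1 and without each *med23* Δli library, *Cidec* without *med23* Δli replicate 1 or 3. No erythroid marker rose without control replicate 1 or 2 or *med23* Δli replicate 1 or 2, and 1 fell without control replicate 3. The part of these cells in the *Klf* values was not tested.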

How the data were processed

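Livers of 3 *med23* f/f and 3 *med23* Δli mice were sequenced after CCl4. The authors checked reads with FastQC, trimmed adapters, aligned with TopHat to UCSC mm10 and ran Cuffdiff, and deposited 1 FPKM per gene and library. Versions, annotation and options are not given in the sources used here. The table also holds the authors' group values, fold changes and test results, which were not used. The study's methods give a median read number, but FPKM hold no counts, so the depth of each library is unknown and the error is the spread between livers.

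Genes averaging 0.5 FPKM or more (11956 of 24346) were compared on log2(FPKM + 0.1), which understates folds of low genes. The test was limma 3.58.1 in R 4.3.3 (eBayes with a trend, Benjamini-Hochberg adjustment, no replicate block). On simulated data with equal spread in both groups it found 92 of 100 genes set to a log2 change of 1, with 7 false calls. In these livers the controls varied more, a case that the simulation did not cover. Positions came from GENCODE M21 and start windows from RefSeq. Python 3.11.15, pandas 2.3.3 and scipy 1.17.1 did the rest. All 10 members are named, and of the lists other than cell markers the genes past the test and some of those tied to a member. The members and lists were chosen with earlier results of these data known. Alternatives were other pseudocounts, filters, scalings and variance models, the replicate block and each library left out.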

Additional observations from a re-analysis of the deposited data

How the results depend on the processing

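Pseudocounts of 1 and 0.01, a filter at 1 FPKM, median centring, quantile normalization, TPM rescaling and robust eBayes left the counts over all genes, the members and the lists together within 1.5 times their values, and no member changed direction. Within single lists, TPM rescaling lost *Hdac1* and *Smad4*, robust eBayes 1 stellate and 1 erythroid call and quantile normalization 1 erythroid call, and the filter at 1 FPKM added 1 erythroid call. Without a filter 3 members rose, and without a trend 3 genes of the pathway and marker lists rose, against 6 and 5. With each library left out, genes past the test were 397–1723 up and 343–1420 down (1384 and 1133 with all 6), members 1–8 up, and listed genes 2–13 up and 10–21 down (5 and 18 with all 6). The log2 fold change of *Med23* (−0.11) was 0.017 without control replicate 3. Leaving out replicate 2 of both groups together, chosen after seeing the data, gave 287 genes up, 204 down, 2 members (*Klf9* and *Klf15*) up, 2 listed genes up and 7 down, and −0.25 for *Med23*. Fewer libraries were fitted in these cases; the cause of the other shifts was not tested. No source used here pairs same-numbered livers. Their deviations from the group means correlated at −0.02, −0.05 and −0.12, and those of differently numbered livers at −0.09 to 0.12. Such values cannot show whether same-numbered livers shared a litter, cage or batch. With the replicate number as a block 809 genes rose and 614 fell, and 4 members rose (*Klf4*, *Klf9*, *Klf11* and *Klf15*). The deposited values hold no counts per library, so no limit from counting was computed.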

Other observations

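Other genes followed the pattern of the members with the smallest adjusted p closely. Likeness was the root mean square difference of log2(FPKM + 0.1), centred on each gene's mean, over the 6 libraries, and the closest genes were chosen for this pattern, so their changes are a description. Nearest to *Klf9* were *Arhgef37* (0.0938), *Blnk* (0.145), *Slc35g2* (0.150), *Matn2* (0.158) and *Fam129a* (0.160). *Blnk*, a B cell adaptor gene, had a mean of 1.67 FPKM in the controls and 6.44 FPKM in *med23* Δli livers. Nearest to *Klf15* were *Elmo1* (0.0955), *Pde4b* (0.108), *Ypel5* (0.149), *Tgfb2* (0.151) and *Ptprk* (0.152). *Pde4b*, which encodes a cAMP-degrading enzyme, had 2.71 and 7.23 FPKM, and *Tgfb2*, a TGF-beta ligand gene, 0.709 and 2.18 FPKM. Among the members themselves *Klf12* and *Klf13* were most alike (0.163), followed by *Klf3* and *Klf12* (0.224), although *Klf12* had the lowest level of the 10.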
